A study of Mus musculus with 5 samples.

Results

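Cyclic nucleotide phosphodiesterases are the enzymes that break down cAMP and cGMP. The 10 genes described here, Pde1a, Pde1b, Pde1c, Pde2a, Pde4a, Pde4b, Pde4d, Pde7a, Pde7b and Pde10a, were chosen by symbol from the 55385 genes counted in every library, and all 10 passed the filter on low counts. The study examined how seizures alter transcripts in the mouse hippocampus, and the data set held 5 libraries of total RNA from hippocampi of male C57/bl6 mice aged 3 months. One library came from untreated animals and was the control. The others came from animals that received kainic acid, an agonist of glutamate receptors that provokes seizures, at 20 mg/kg by intraperitoneal injection, and that were sacrificed after seizure onset. Of these, 1 library was taken at 1 h, 2 at 4 h, called replicate 1 and replicate 2, and 1 at 8 h. The kainic acid animals were those that reached a severe seizure stage. The control was not injected, so kainic acid and the injection itself cannot be told apart, and the sources do not state whether a library came from a single mouse.

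Phosphodiesterases end the cAMP or cGMP signal that adenylyl or guanylyl cyclases start, and they shape how long protein kinase A, protein kinase G and other effectors stay active. The families differ in what they hydrolyse and in what regulates them: PDE1 enzymes are switched on by calcium and calmodulin, PDE2 by cGMP, and PDE4 and PDE7 enzymes are specific for cAMP. Transcription of some PDE4 variants rises with cAMP in many cells, and for this reason these enzymes are known as feedback regulators of the pathway.

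Reads counted on genes numbered between 16612225 in the 8 h library and 19109204 in replicate 2 at 4 h. Values below are CPM scaled by the TMM method of edgeR (normalized CPM), which put the libraries on a common scale, unless TPM are named. TPM divide by exon length and are not scaled by TMM. Replicate 1 and replicate 2 always mean the 4 h libraries. Intervals on a single library are 95% intervals of the count, Poisson for levels and exact binomial for ratios to the control, and they cover counting error only. A count of 3, taken as the floor of detection, corresponded to between 0.151 and 0.178 normalized CPM, and every member lay far above it in every library.

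The libraries were first examined for marks of seizure and for tissue. The activity-regulated gene Fos had 10.8 normalized CPM (control), 999 (1 h), 519 (replicate 1), 70.4 (replicate 2) and 17.2 (8 h). Fos was thus highest at 1 h, and replicate 1 stayed above replicate 2. Arc, which encodes a protein of active synapses, had 148 normalized CPM (control), 2022 (1 h), 2593 (replicate 1), 928 (replicate 2) and 152 (8 h). All 5 activity-regulated genes of the list (Fos, Arc, Npas4, Egr1 and Nr4a1) had a higher level at 1 h than in the control, and all 5 were higher in replicate 1 than in replicate 2. The pair at 4 h therefore differed in these genes.

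Replicate 1 also stood apart in markers of tissue that borders the hippocampus. The choroid plexus markers Ttr, Kl, Folr1 and Kcnj13 summed to 3932 normalized CPM (control), 1662 (1 h), 26.4 (replicate 1), 4176 (replicate 2) and 3032 (8 h), and Ttr was the most abundant. These genes were detected in every library, and the low sum in replicate 1 was the exception among the 5. The thalamic markers Tcf7l2, Prkcd and Lef1 summed to 33.2, 34.2, 220, 86.4 and 28.3 normalized CPM in the control, 1 h, replicate 1, replicate 2 and 8 h libraries, and Prkcd was the most abundant. The sum was thus high in both 4 h libraries, as was Prkcd with 199 and 79.0, whereas Lef1 had 3.52 in the control, 7.31 in replicate 1 and 3.23 in replicate 2. The part of such differences in the values of the phosphodiesterases was not tested.

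**Figure D1:**
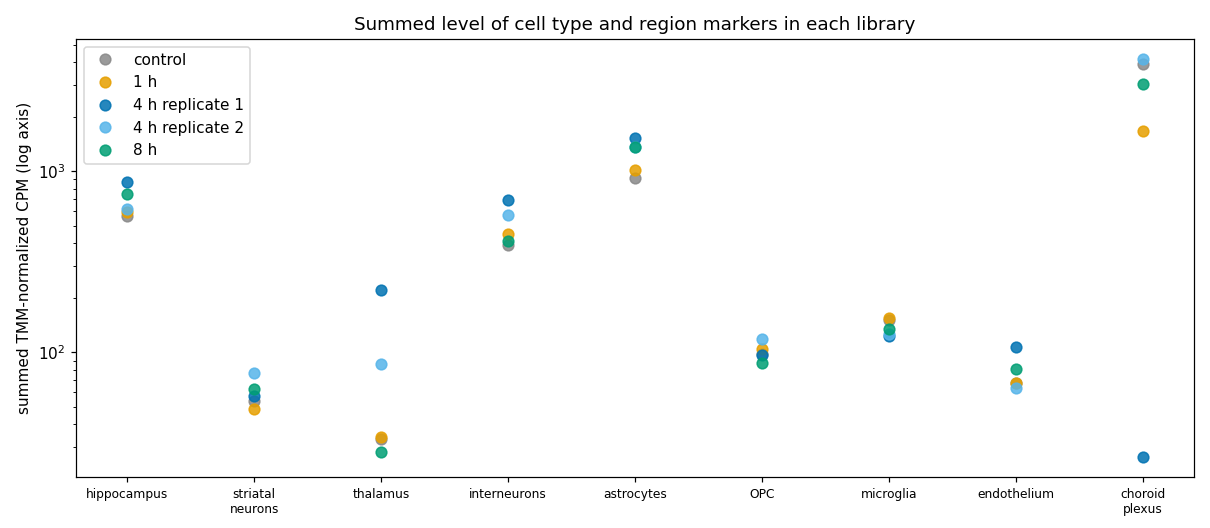
Summed normalized CPM (y axis, log scale) of the marker genes of 9 cell types or regions (x axis), with 1 point per library. Choroid plexus markers were lowest in replicate 1 at 4 h, at 26.4, and thalamic markers were highest there, at 220.

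The hippocampal markers Prox1, C1ql2, Fibcd1, Spink8 and Zbtb20 were present in every library, with summed levels between 568 in the control and 876 in replicate 1. Zbtb20 led this sum, with 331 in the control and 613 in replicate 1. Of the hippocampal markers, C1ql2 and Prox1 mark dentate granule cells. C1ql2 had 29.3 normalized CPM (control), 27.9 (1 h), 11.05 (replicate 1), 11.7 (replicate 2) and 58.1 (8 h). Prox1 had 60.0 (control), 67.2 (1 h), 172 (replicate 1), 119.7 (replicate 2) and 77.1 (8 h), so these markers lay on opposite sides of the control at 4 h. Unlike the sum, Fibcd1 and Spink8 were lowest in replicate 1. Fibcd1 had 132 (control), 69.1 (replicate 1) and 92.3 (replicate 2), and Spink8 had 14.9, 10.5 and 16.8 in the same libraries.

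Striatal neurons are the cells best known for Pde10a. The sum of their markers Drd1, Drd2, Adora2a, Rgs9 and Ppp1r1b was 53.6 normalized CPM (control), 48.8 (1 h), 57.5 (replicate 1), 77.0 (replicate 2) and 62.7 (8 h). Ppp1r1b led the sum in every library except replicate 1, where Drd1 was higher. Ppp1r1b was lowest in replicate 1, at 17.6, and highest in replicate 2, at 42.5. Drd1 had 7.54 (control), 6.60 (1 h), 20.9 (replicate 1), 15.7 (replicate 2) and 12.9 (8 h), and was thus, like Pde10a, highest in replicate 1 and next in replicate 2 (log2 fold change at 4 h 1.27, SE 0.318, edgeR adjusted p = 0.319). Rgs9 was also highest in both 4 h libraries, with 9.90 in the control, 16.0 in replicate 1 and 15.7 in replicate 2. Drd2 lay between 0.913 and 1.9 and Adora2a between 0.603 and 1.48. The part of these markers in the values of Pde10a was not tested. In bulk tissue, fewer cells of a type and less RNA per cell cannot be told apart.

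All 19768 genes that passed the filter were compared with the quasi-likelihood test of edgeR, and its p values were adjusted by the Benjamini-Hochberg method. Only the pair at 4 h is replicated, so 1 residual degree of freedom was left, and each single library was assumed to vary as these replicates did. 

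At 1 h, 0 of the 10 phosphodiesterases passed an adjusted p of 0.05, as did 0 of all genes (0%), and 0 had an unadjusted p under 0.05, against 478 genes (2.42%). The members' log2 fold changes ran from -0.15 to 0.58 with a median of 0.10, beside a median of -0.01 over all genes. Of the 10 members, 0 were at least 1.5-fold higher than the control, against 10.9% of all genes, and 0 were at least 1.5-fold lower, against 9.2%. DESeq2 called 56 genes at this time and limma-voom 0, with 0 members among them.

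At 4 h, edgeR called 0 members and 1 of all genes (0.00506%), which was ETV3L, a gene named here after its value was seen. Pde2a was the 1 member with an unadjusted p under 0.05, against 2291 genes (11.6%). DESeq2 called 238 genes and limma-voom 0, with 0 members among them. Both 4 h libraries lay above the control for 4 members (Pde2a, Pde4d, Pde7b and Pde10a), against 38.1% of all genes, and both lay below it for 5 members (Pde1a, Pde1b, Pde1c, Pde4a and Pde7a), against 38.3%. Only Pde4b had the pair on opposite sides. At least 1.5-fold higher in both libraries was 1 member, Pde2a, against 10.1% of all genes, and 0 members were at least 1.5-fold lower, against 6.28%. In replicate 1 alone 4 members were at least 1.5-fold higher (Pde2a, Pde4d, Pde7b and Pde10a), against 21.1% of all genes, and 0 were lower by that fold, against 16.8%. In replicate 2 alone 1 member was higher (Pde2a), against 13.8%, and 1 lower (Pde1b), against 10.7%.

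At 8 h, edgeR called 0 members and 0 of all genes (0%), and Pde2a was again the 1 member with an unadjusted p under 0.05, against 892 genes (4.51%). DESeq2 called 33 genes and limma-voom 0, with 0 members among them. At least 1.5-fold higher than the control was 1 member, Pde2a, against 14.1% of all genes. At least 1.5-fold lower were 2 members, Pde1b and Pde1c, against 8.94%. The members' log2 fold changes spanned -0.85 to 1.02 with a median of -0.06, beside 0.01 over all genes.

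The 8 h library was also compared directly with the 4 h pair. edgeR called 0 members and 0 of all genes (0%), and 3 members had an unadjusted p under 0.05 (Pde4a higher at 8 h, Pde7b and Pde10a lower), against 1726 genes (8.73%). DESeq2 called 129 genes and limma-voom 0, with 0 members among them. Between 4 h and 1 h edgeR called 0 members and 1 of all genes (0.00506%), again ETV3L, and between 8 h and 1 h 0 members and 0 genes (0%). In those 2 comparisons 2 members (Pde2a and Pde4a at 4 h) and 0 members had an unadjusted p under 0.05, against 7.94% and 5.89% of all genes. There DESeq2 called 109 and 69 genes, and limma-voom 0 in each. With edgeR and the filter on low counts, no difference of a member between time points was thus past the adjusted threshold. Without that filter, when edgeR called 957 (8 h against 4 h) and 438 (8 h against 1 h) of 32732 genes, 2 were, Pde7b at 8 h against 4 h (edgeR adjusted p = 0.0383, and 0.0383 to 0.606 over the 7 alternatives) and Pde1b at 8 h against 1 h (edgeR adjusted p = 0.0243, and 0.0243 to 1).

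**Figure D2:**
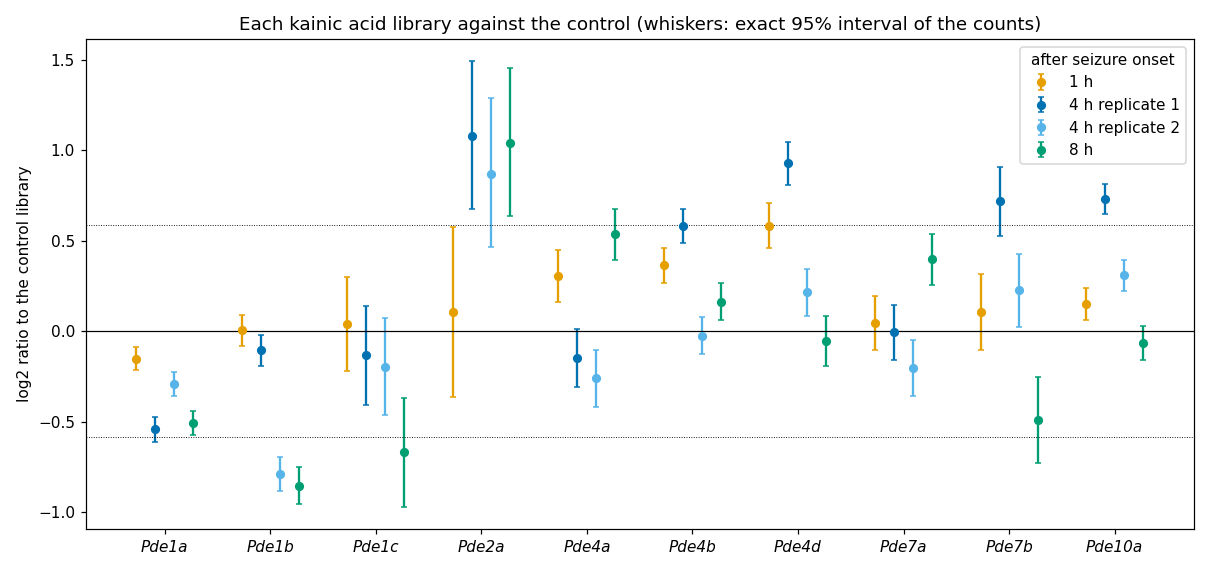
Log2 ratio of each kainic acid library to the control (y axis) for the 10 members (x axis), with exact binomial 95% intervals of the counts and dotted lines at 1.5-fold. Pde2a lies more than 1.5-fold above the control in both 4 h libraries and at 8 h, and Pde4d, Pde7b and Pde10a in replicate 1 alone. More than 1.5-fold below the control lie Pde1b at 8 h and in replicate 2, and Pde1c at 8 h.

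The 3 enzymes of the PDE1 family respond to calcium and calmodulin and hydrolyse both cAMP and cGMP. By TPM this family held the most abundant transcripts of the members, although the count of Pde2a may be a lower bound, as described below. Pde1a (ENSMUSG00000059173.19; chr2:79834453-80129458 of GRCm38, minus strand, 10 annotated transcripts) had 4457 counts (control), 3543 (1 h), 2587 (replicate 1), 3456 (replicate 2) and 2760 (8 h). This corresponds to 224, 202, 154, 183 and 157 normalized CPM. All 4 kainic acid libraries lay below the control, replicate 1 and the 8 h library the lowest. Relative to the control the level was 0.900 at 1 h (interval 0.861 to 0.941), 0.686 (0.653 to 0.720) and 0.816 (0.780 to 0.853) at 4 h in replicate 1 and replicate 2, and 0.703 (0.670 to 0.737) at 8 h. The log2 fold change was -0.41 at 4 h (SE 0.179, edgeR adjusted p = 0.453) and -0.51 at 8 h (SE 0.210, edgeR adjusted p = 1).

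Pde1b (ENSMUSG00000022489.6; chr15:103503034-103530052, plus strand) had 2457 counts (control), 2176 (1 h), 1931 (replicate 1), 1350 (replicate 2) and 1197 (8 h), or 123, 124, 115, 71.4 and 68.3 normalized CPM. The control, 1 h and replicate 1 libraries were close together, whereas replicate 2 and the 8 h library were low. Against the control the ratio was 0.929 (0.875 to 0.986) in replicate 1, 0.578 (0.541 to 0.618) in replicate 2 and 0.553 (0.516 to 0.593) at 8 h. The mean at 4 h was 93.0 ± 30.6 normalized CPM (SD, n = 2), so this SD was as large as the distance of the mean from the control. At 8 h its log2 fold change was -0.85 (SE 0.350, edgeR adjusted p = 1), the lowest of the members. Without the filter on low counts, when edgeR called 279 of 32732 genes at 8 h, its adjusted p was 0.0378, and over the 7 alternatives it ranged from 0.0378 to 1.

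Pde1c (ENSMUSG00000004347.17 in the counts; position and exon length of version ENSMUSG00000004347.16 in GENCODE M21, chr6:56069804-56569103, minus strand) was far less abundant, with 258 counts (control), 234 (1 h), 199 (replicate 1), 214 (replicate 2) and 143 (8 h). In normalized CPM these were 13.0 (control), 13.3 (1 h), 11.8 (replicate 1), 11.3 (replicate 2) and 8.16 (8 h). Intervals cover counting error only, and the share of all genes with intervals apart from that of the control was not computed. For Pde1c only the 8 h library had an interval (6.88 to 9.61) that did not overlap that of the control (11.4 to 14.6). At 8 h its log2 fold change was -0.66 (SE 0.306, edgeR adjusted p = 1). The TPM of Pde1a was 57.7 (control), 50.5 (1 h), 43.4 (replicate 1), 53.9 (replicate 2) and 64.4 (8 h) times that of Pde1c.

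To show the DNA in front of members of a pathway that acts on transcription, RefSeq promoter windows of GRCm38.p6, 250 bases before to 50 after a start, were searched on both strands. They covered 9 of the 10 members with 26 windows, and Pde7a had none. The cAMP response element TGACGTCA was in 0 of the 26 and in 1.79% of all 32851 windows. Its shorter form TGACG, which lies within the full element, was in 4 of the 26 (15.4%), against 20.8% of all. The letters TGANTCA, a site of Fos-containing factors, were in 1 of the 26, a window of Pde1c, against 7.81% of all.

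For Pde1a the short form lay 166 bases before an annotated start, between exons of the gene at chr2:80039052-80039080 (minus strand), in the stretch printed here with the motif, in reverse orientation, in capitals.
Pde1a: gtaacttcagccCGTCAttcctcagtaat

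Pde2a encodes an enzyme that cGMP stimulates and that hydrolyses both cyclic nucleotides. It was the member with the highest log2 fold change at 4 h and at 8 h, from few counts. Pde2a (ENSMUSG00000110195.1; chr7:101421691-101512827, plus strand) had 80 counts (control), 76 (1 h), 143 (replicate 1), 139 (replicate 2) and 145 (8 h). These are 4.02, 4.32, 8.49, 7.35 and 8.27 normalized CPM. The control and 1 h libraries were low and both 4 h libraries and the 8 h library were high. The intervals cover counting error only, and the share of all genes with non-overlapping intervals was not computed. For Pde2a the 4 h and 8 h intervals (the lowest bound 6.18) did not overlap those of the control and 1 h libraries (the highest bound 5.41). Its ratio to the control was 1.08 (0.775 to 1.49) at 1 h, 2.11 (1.60 to 2.81) in replicate 1, 1.83 (1.38 to 2.44) in replicate 2 and 2.06 (1.56 to 2.74) at 8 h. The mean at 4 h was 7.92 ± 0.808 normalized CPM (SD, n = 2).

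The log2 fold change of Pde2a was 0.96 at 4 h (SE 0.348, edgeR adjusted p = 0.402) and 1.02 at 8 h (SE 0.389, edgeR adjusted p = 1), higher in 2 of 2 and 1 of 1 libraries. Neither passed the threshold over all genes. Of the 6149 exon bases of Pde2a in GENCODE M21, 3955 (64.3%) are shared on the same strand with the gene Gm45837, and a read on shared bases belongs to no single gene when counted. Gm45837 is among the genes counted by the authors and had 0 counts in every library. The annotation release behind the counts is not given in the sources used here, so whether it held the same overlap is not known. If it did, the count of Pde2a is a lower bound of its level. Its ratios between libraries would then rest on reads from the exon bases not shared, while its TPM divides by all 6149. A window of Pde2a also held the short form TGACG, 15 bases after the start.

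Pde10a encodes an enzyme that hydrolyses both cyclic nucleotides and is known from striatal medium spiny neurons. Pde10a (ENSMUSG00000023868.17; chr17:8525372-8986648, plus strand) had 2038 counts (control), 1995 (1 h), 2859 (replicate 1), 2399 (replicate 2) and 1716 (8 h), which are 102, 114, 170, 127 and 97.9 normalized CPM. Both 4 h libraries were the highest, replicate 1 above replicate 2, and the 8 h library was close to the control. The ratio to the control was 1.11 (1.04 to 1.18) at 1 h, 1.66 (1.57 to 1.76) in replicate 1, 1.24 (1.17 to 1.31) in replicate 2 and 0.956 (0.896 to 1.02) at 8 h. The log2 fold change was 0.53 at 4 h (SE 0.229, edgeR adjusted p = 0.448). Between 8 h and 4 h it was -0.60 (SE 0.229, edgeR adjusted p = 0.562).

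The PDE4 family is specific for cAMP and is the target of rolipram. Pde4d (ENSMUSG00000021699.17; chr13:108449948-109953461, plus strand, 20 annotated transcripts) had 941 counts (control), 1244 (1 h), 1515 (replicate 1), 1037 (replicate 2) and 797 (8 h). In normalized CPM it had 47.3 (control), 70.8 (1 h), 90.0 (replicate 1), 54.8 (replicate 2) and 45.5 (8 h). The 1 h and replicate 1 libraries were high, replicate 2 was only a little above the control and the 8 h library was at its level. Against the control the ratio was 1.497 (1.37 to 1.63) at 1 h, 1.90 (1.75 to 2.07) in replicate 1, 1.16 (1.06 to 1.27) in replicate 2 and 0.962 (0.874 to 1.06) at 8 h. The log2 fold changes were 0.58 at 1 h (SE 0.366, edgeR adjusted p = 1) and 0.61 at 4 h (SE 0.324, edgeR adjusted p = 0.522). Of the 10 members, Pde4d had the highest log2 fold change at 1 h and the widest gap between replicate 1 and replicate 2, 0.71 on the log2 scale.

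Pde4b (ENSMUSG00000028525.16; chr4:102087543-102607259, plus strand) had 1608 counts (control), 1827 (1 h), 2036 (replicate 1), 1500 (replicate 2) and 1585 (8 h), or 80.8, 104, 121, 79.3 and 90.4 normalized CPM. As for Pde4d, the 1 h and replicate 1 libraries were the highest, but replicate 2 lay at the level of the control. Its ratio to the control was 1.29 (1.20 to 1.38) at 1 h, 1.497 (1.40 to 1.60) in replicate 1, 0.982 (0.915 to 1.05) in replicate 2 and 1.12 (1.04 to 1.20) at 8 h. The log2 fold change was 0.36 at 1 h (SE 0.321, edgeR adjusted p = 1) and 0.31 at 4 h (SE 0.281, edgeR adjusted p = 0.697). The value at 4 h rests on replicate 1, since it is -0.03 without replicate 1 and 0.58 without replicate 2.

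Pde4a (ENSMUSG00000032177.17; chr9:21165714-21213248, plus strand) followed another course. It had 751 counts (control), 819 (1 h), 573 (replicate 1), 595 (replicate 2) and 958 (8 h), which are 37.7, 46.6, 34.0, 31.5 and 54.6 normalized CPM. The pair at 4 h was the lowest and the 8 h library the highest, with the control and 1 h between them. The ratio to the control was 1.23 (1.12 to 1.37) at 1 h, 0.902 (0.808 to 1.007) in replicate 1, 0.834 (0.748 to 0.930) in replicate 2 and 1.45 (1.31 to 1.60) at 8 h. Between 8 h and 4 h the log2 fold change was 0.74 (SE 0.191), and edgeR's adjusted p = 0.476 was the lowest of the members in that comparison.

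Pde4a and Pde4b each had a window with the short form, 50 bases before a start for Pde4a, outside its exons at chr9:21184039-21184067 (plus strand), and 34 bases before a start for Pde4b, overlapping an exon of another transcript at chr4:102421509-102421537 (plus strand). The capitals again mark the motif in reverse orientation.
Pde4a: ggcacagctcgaCGTCAggctggggagga
Pde4b: gatttggctgcaCGTCAattttctcatct

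The windows of Pde1b, Pde4d, Pde7b and Pde10a held none of the 3 motifs. For Pde4d, Pde7b and Pde10a no window lay at the outermost start of the gene in GENCODE M21, so not all starts were searched. No match says only that these letters are not in these windows.

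The PDE7 family is also specific for cAMP and is not inhibited by rolipram. Pde7a (ENSMUSG00000069094.12; chr3:19223108-19311322, minus strand) had 771, 703, 649, 636 and 894 counts in the control, 1 h, replicate 1, replicate 2 and 8 h libraries, or 38.7, 40.0, 38.5, 33.6 and 51.0 normalized CPM. Only the 8 h library stood above the others, at 1.32 times the control (1.19 to 1.45), and the log2 fold change was 0.40 (SE 0.237, edgeR adjusted p = 1). Exons of Gm16093 on the opposite strand lie over 0.62% of its exon bases, and the strand setting of the counting is not given in the sources used here.

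Pde7b (ENSMUSG00000019990.15; chr10:20398004-20725078, minus strand) had 389 counts (control), 370 (1 h), 541 (replicate 1), 432 (replicate 2) and 244 (8 h), or 19.5, 21.05, 32.1, 22.8 and 13.9 normalized CPM. It was highest in replicate 1 and lowest at 8 h. Against the control the ratio was 1.64 (1.44 to 1.88) in replicate 1, 1.17 (1.02 to 1.34) in replicate 2 and 0.712 (0.604 to 0.838) at 8 h. Between 8 h and 4 h the log2 fold change was -0.98 (SE 0.304, edgeR adjusted p = 0.515), the lowest of the members in that comparison.

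**Figure D3:**
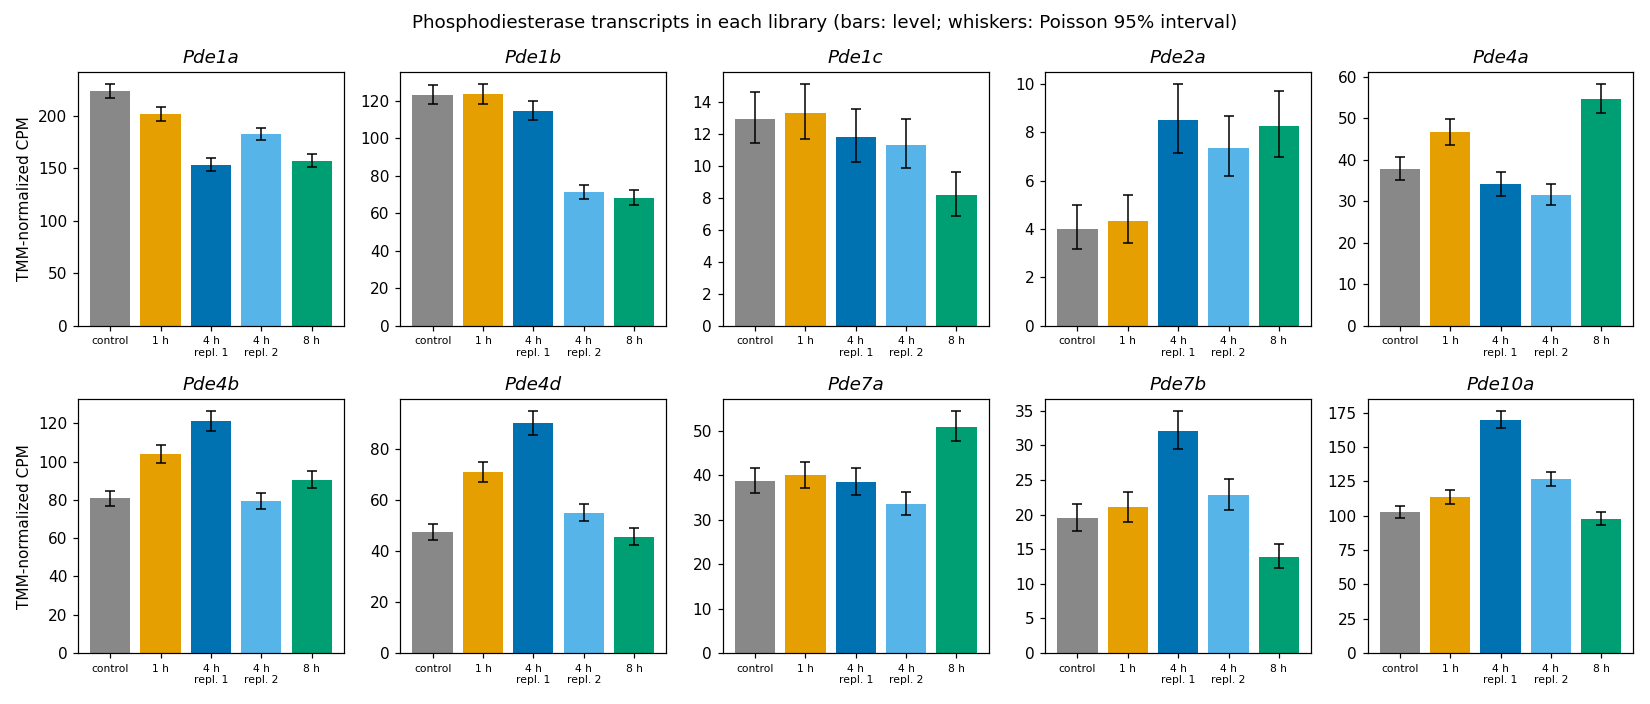
Normalized CPM (y axis, starting at 0) of the 10 members in the 5 libraries (x axis), with Poisson 95% intervals as whiskers. Pde10a, Pde7b, Pde4d, Pde4b and Pde2a had their highest bar in replicate 1 at 4 h. The highest bar lay at 8 h for Pde4a and Pde7a, at 1 h for Pde1b and Pde1c, and in the control for Pde1a.

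In the order of TPM, which allows levels of different genes to be compared, Pde1a had 121 in the control, Pde1b 74.2, Pde10a 25.9, Pde4b 24.8, Pde7a 16.2, Pde4a 16.0, Pde4d 12.8, Pde7b 5.10, Pde2a 2.12, which may be a lower bound, and Pde1c 2.10. Pde10a and Pde4b, and Pde7a and Pde4a, were close to each other. At 8 h the TPM of Pde1b was 42.7, that of Pde4b 28.9, that of Pde10a 25.7, that of Pde4a 24.1 and that of Pde7a 22.2. Pde1a remained the first and Pde1b the second of the members in each of the 5 libraries. The TPM of Pde7a was 3.18 times that of Pde7b in the control, 1.93 and 2.36 times in replicate 1 and replicate 2 at 4 h, and 5.88 times at 8 h, so this ratio was lowest in the pair and highest at 8 h.

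The composition of all phosphodiesterase transcripts was examined with 14 further genes, the list of PDE3, PDE5, PDE6, PDE8, PDE9 and PDE11 genes and Pde4c. This list includes Pde6d, Pde6g and Pde6h, which encode subunits or partners without catalytic activity. The summed TPM of the 24 genes was 424 (control), 435 (1 h), 376 (replicate 1), 360 (replicate 2) and 385 (8 h). The 10 members made up 70.7% of it (control), 69.8% (1 h), 73.1% (replicate 1), 65.9% (replicate 2) and 66.2% (8 h). The share of the members was thus high in all libraries, and the pair at 4 h held both the highest and the lowest value.

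The PDE1 family took 46.5% (control), 41.8% (1 h), 37.3% (replicate 1), 37.5% (replicate 2) and 34.5% (8 h) of the summed TPM. Its share was highest in the control and lowest at 8 h, and the pair at 4 h was nearly equal. The PDE4 family took 12.9% (control), 16.3% (1 h), 18.6% (replicate 1), 13.9% (replicate 2) and 17.3% (8 h), so the shares of all 4 kainic acid libraries lay above that of the control. Its summed TPM was 54.5 (control), 70.9 (1 h), 69.9 (replicate 1), 49.9 (replicate 2) and 66.6 (8 h). Replicate 2 thus lay below the control in TPM, while the total TPM of the 24 genes was also lower there. In normalized CPM, Pde4d was higher in replicate 2 than in the control (54.8 against 47.3). Pde4a (31.5 against 37.7), Pde4b (79.3 against 80.8) and Pde4c (0.793 against 1.66) were lower. The PDE10 share was 6.09% (control), 6.47% (1 h), 10.4% (replicate 1), 8.39% (replicate 2) and 6.69% (8 h). Pde8b, which encodes an enzyme with high affinity for cAMP and is not among the members, was the most abundant of the other genes, with 11.3% (control), 12.0% (1 h), 9.72% (replicate 1), 12.9% (replicate 2) and 15.1% (8 h). These shares are descriptions of single libraries and were not tested. All shares of the summed TPM, that of the members included, use the counted level of Pde2a, which may be a lower bound.

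**Figure D4:**
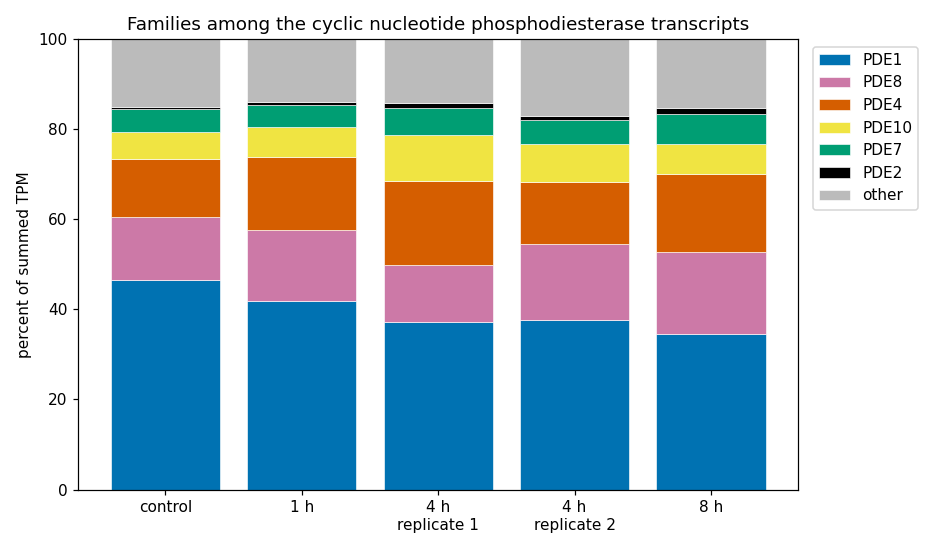
Share of the summed TPM of 24 phosphodiesterase genes (y axis, percent) that each family took in the 5 libraries (x axis). The PDE1 share was 46.5% in the control and between 34.5% and 41.8% in the kainic acid libraries.

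Of the 14 other phosphodiesterase genes, 13 passed the filter on low counts, and Pde6a did not. edgeR called 0 of the 13 at each time point, and an unadjusted p under 0.05 was found for 0 at 1 h, 0 at 4 h and 2 at 8 h, both higher, against 2.42%, 11.6% and 4.51% of all genes. These were Pde6g, with 0.301 normalized CPM in the control and 1.997 at 8 h, and Pde6c, with 0.251 and 1.60, genes best known from photoreceptors and close to the floor in the control. At 1 h the highest log2 fold change was that of Pde4c (0.56) and the lowest that of Pde6b, which had 6 counts in the control and 2 at 1 h. At 4 h they were Pde6c (0.75) and Pde11a (-0.60), and at 8 h Pde6g (2.36) and Pde6h (-0.83). Pde11a had 15.2 normalized CPM (control), 11.8 (1 h), 9.03 (replicate 1), 10.9 (replicate 2) and 8.90 (8 h), so every kainic acid library was below the control. The median log2 fold change of the 13 genes was 0.06, -0.10 and -0.04 at 1, 4 and 8 h, beside -0.01, 0.01 and 0.01 over all genes.

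Adenylyl cyclases make cAMP, and all 10 genes passed the filter. edgeR called 0 of them at each time point. Beside 2.42%, 11.6% and 4.51% of all genes at 1, 4 and 8 h, 0 of them had an unadjusted p under 0.05 against the control. Their medians of the log2 fold change were -0.07, -0.18 and -0.22 at 1, 4 and 8 h, beside the same medians over all genes as above (-0.01, 0.01 and 0.01), which also apply to the lists that follow. Adcy1, the calcium-stimulated form of hippocampal neurons, had the highest log2 fold change at 1 h (0.27), with 1402 normalized CPM in the control and 1697 at 1 h. The highest log2 fold change at 4 h was that of Adcy8 (0.38), also stimulated by calcium, with 34.0 normalized CPM in the control, 61.3 in replicate 1 and 27.2 in replicate 2, so the pair lay on both sides of the control. At 8 h Adcy8 had the lowest value of the list, -0.61, and Adcy4 the highest, 0.36. The lowest log2 fold changes at 1 h and 4 h were those of the low gene Adcy10 (-1.08 and -0.59).

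The guanylyl cyclases, 9 genes of which all passed the filter, also had 0 edgeR calls. Beside the same shares of all genes (2.42%, 11.6% and 4.51%), 0 of them had an unadjusted p under 0.05. Their medians were 0.03, -0.12 and -0.29 at 1, 4 and 8 h. At 4 h the lowest was that of Npr2, a receptor for C-type natriuretic peptide (-0.40), with 32.9 normalized CPM in the control and 23.2 and 26.7 in replicate 1 and replicate 2. The highest was Gucy2c at each time point (0.46, 1.09 and 1.79), a gene with 0.301 normalized CPM in the control and 1.31 at 8 h. The lowest at 1 h and 8 h was Gucy2f (-0.12 and -0.83).

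Among the 13 effectors, which are subunits and inhibitors of protein kinase A, protein kinase G and the exchange factors of Rap, edgeR called 0 at each time point. An unadjusted p under 0.05 was found at 4 h for 1 higher gene, Prkar2a, and 2 lower genes, Prkar2b and Pkia, against 11.6% of all genes, and for 0 at 1 h and 8 h, against 2.42% and 4.51%. Prkar2a, a regulatory subunit of protein kinase A, had 51.9 normalized CPM (control), 61.4 (1 h), 266 (replicate 1), 88.5 (replicate 2) and 51.0 (8 h). The pair at 4 h was high and replicate 1 the highest, and the log2 fold change of 1.77 (SE 0.656) had an edgeR adjusted p = 0.408. Its relative Prkar2b had 42.9 (control), 38.1 (1 h), 26.5 (replicate 1), 27.4 (replicate 2) and 45.0 (8 h), so both 4 h libraries were low (log2 fold change -0.67, SE 0.195, edgeR adjusted p = 0.352). At 1 h the highest log2 fold change was that of Pkib (0.31) and the lowest that of Pkia (-0.38), both inhibitors of protein kinase A, and at 8 h they were Pkig (0.39) and Prkg2 (-1.02). The list medians were 0.11, -0.02 and -0.07 at 1, 4 and 8 h.

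The anchors hold protein kinase A and phosphodiesterases at places in the cell, and of these 10 genes edgeR called 0 at each time point. An unadjusted p under 0.05 was found at 4 h for 2 higher genes, Pde4dip and Akap13, and 1 lower gene, Akap1, against 11.6% of all genes, and at 8 h for 1 lower gene, Akap5, against 4.51%. Pde4dip, which encodes myomegalin, an anchor named for its binding to PDE4D, had 347 normalized CPM (control), 391 (1 h), 1098 (replicate 1), 746 (replicate 2) and 538 (8 h). Every kainic acid library was thus above the control and the pair at 4 h the highest. Its log2 fold change was 1.41 at 4 h (SE 0.278, edgeR adjusted p = 0.260) and 0.63 at 8 h (SE 0.301, edgeR adjusted p = 1). Akap12 had the highest log2 fold change at 1 h (0.89), with 32.8 normalized CPM (control), 61.0 (1 h), 125.4 (replicate 1), 45.5 (replicate 2) and 33.4 (8 h). The lowest log2 fold changes were those of Akap13 at 1 h (-0.23), Akap1 at 4 h (-0.54) and Akap5 at 8 h (-0.64), and the medians were -0.02, -0.09 and -0.01.

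Of the 7 genes of CREB, related transcription factors that act at cAMP response elements, and their partners, edgeR called 0 at each time point. An unadjusted p under 0.05 was found for 1 gene at 1 h, Crem, against 2.42% of all genes, and at 4 h for Crem and Atf1, both higher, and Crtc1, lower, against 11.6%. Crem, whose internal promoter gives the repressor ICER, had 11.8 normalized CPM (control), 35.8 (1 h), 54.6 (replicate 1), 22.2 (replicate 2) and 16.3 (8 h). All kainic acid libraries were above the control, replicate 1 the highest, and the log2 fold change was 1.59 at 1 h (SE 0.622, edgeR adjusted p = 1) and 1.69 at 4 h (SE 0.571, edgeR adjusted p = 0.383). Crtc1, a coactivator of CREB, had 71.3, 63.9, 40.2, 45.8 and 70.4 normalized CPM in the control, 1 h, replicate 1, replicate 2 and 8 h libraries. Both 4 h libraries were thus low and the 8 h library was at the level of the control. The lowest log2 fold change at 1 h was that of Crtc2 (-0.30), the highest at 8 h that of Crem (0.46) and the lowest that of Crtc1 (-0.02), and the list medians were -0.04, 0.06 and 0.17.

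**Figure D5:**
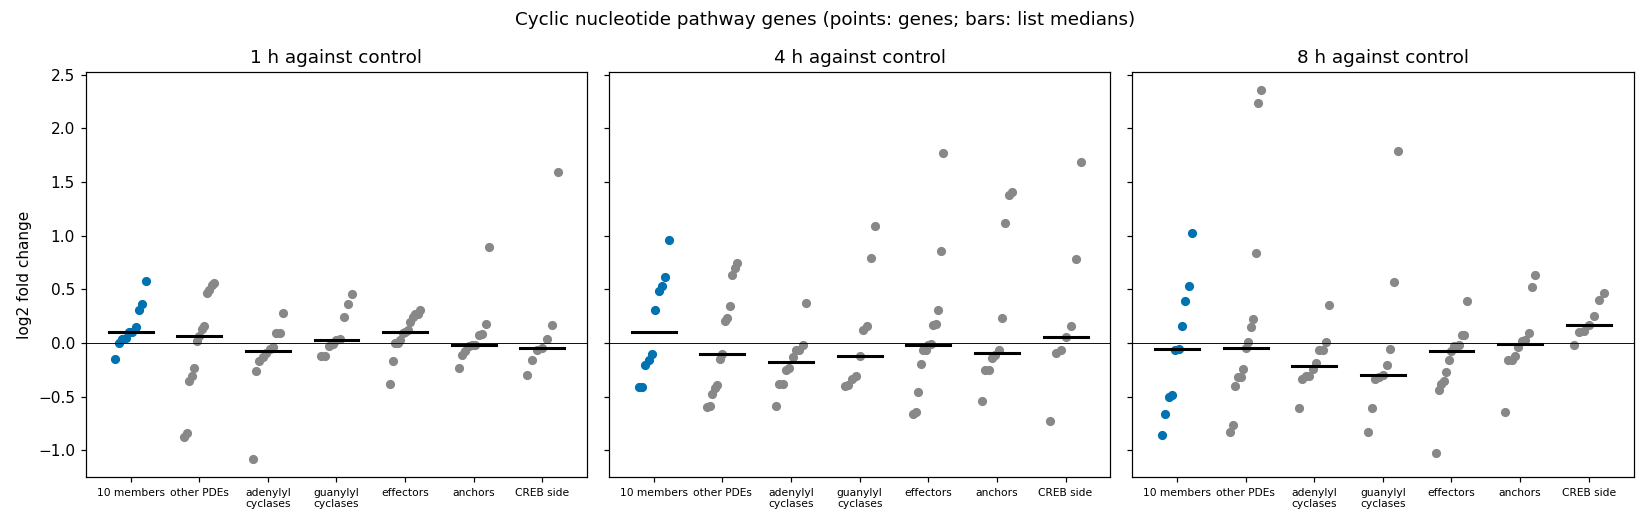
Log2 fold change against the control (y axis) of each gene (points) in the 10 members and 6 pathway lists (x axis) at 1, 4 and 8 h, with the list median as a bar. At 4 h the highest values were those of Prkar2a (1.77), Crem (1.69) and Pde4dip (1.41).

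Markers of other cells were compared between the libraries as well. Interneuron markers (Gad1, Gad2 and Slc32a1, led by Gad1) summed to 391 normalized CPM (control), 448 (1 h), 694 (replicate 1), 574 (replicate 2) and 411 (8 h). Like Pde10a and Pde7b, this sum and Gad1 were highest in replicate 1. Gad2, with 150.5 in replicate 1 and 155 in replicate 2, and Slc32a1, with 31.6 in the control, 28.2 in replicate 1 and 39.2 in replicate 2, were not. Astrocyte markers (Gfap, Aqp4, Aldh1l1 and Slc1a3, led by Slc1a3 except at 8 h, where Gfap was higher) summed to 922 (control), 1014 (1 h), 1520 (replicate 1), 1355 (replicate 2) and 1356 (8 h). The sum was thus higher in the 4 h and 8 h libraries than in the control and 1 h libraries. At 8 h most of its distance from the control lay in Gfap, which had 221 (control), 272 (1 h), 596 (replicate 1), 510.2 (replicate 2) and 587 (8 h), whereas Aqp4 had 133 in the control and 129 at 8 h.

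The microglial markers Cx3cr1, P2ry12, Csf1r and Aif1, led by Csf1r, summed to between 124 in replicate 1 and 154 at 1 h. All 4 lay below the control in both 4 h libraries, and P2ry12 the furthest, with 31.9 (control), 29.7 (1 h), 13.9 (replicate 1), 17.8 (replicate 2) and 20.8 (8 h). The markers of oligodendrocyte precursors Pdgfra and Cspg4, led by Pdgfra, summed to between 87.6 at 8 h and 119 in replicate 2, and the endothelial markers Cldn5, Pecam1 and Flt1, led by Flt1, to between 63.6 in replicate 2 and 107 in replicate 1. Cspg4 was highest at 1 h, and Cldn5 and Pecam1 were highest at 8 h. No marker named here was at 0 in a library. The part of these cells in the values of the phosphodiesterases was not tested.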

How the data were processed

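Total RNA was sequenced with a stranded kit. The authors deposited raw counts per gene, made, per the submitters' processing notes, with STAR 2.5.1b, HTSeq and GRCm38.p4. The annotation release is not given in the sources used here. Reads on no gene were left out of the library sizes. They made up 24.7% (control), 29.0% (1 h), 33.1% (replicate 1), 25.3% (replicate 2) and 30.9% (8 h), so the pair at 4 h differed in this share. The tests used edgeR 4.0.16 in R 4.3.3 (filterByExpr, TMM, quasi-likelihood fit of 4 groups over 5 libraries, prior count of 2, Benjamini-Hochberg adjustment over 19768 genes, threshold 0.05), and the script was tested on simulated data. The biological coefficient of variation was 0.238. Exon lengths and positions were taken from GENCODE M21 (GRCm38), which matched 55144 of 55385 identifiers. Results were recomputed with median-of-ratios factors, with library size alone, with DESeq2 1.42.0, limma-voom (limma 3.58.1), a prior count of 0.5, no filter, and at least 10 counts in every library. All members are named. A gene of another list is named where its log2 fold change was the highest or lowest at a time point or passed a test, and genes named beyond this were chosen after their values were seen. The members and lists were chosen with earlier results of these data known. Results of some markers are not reported here.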

Additional observations from a re-analysis of the deposited data

How the results depend on the processing

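No paired analysis was possible because the groups compared share no 2 replicate numbers. The alternatives for calls against 1 h, for member values between time points and the filters for single members were chosen after seeing the data. Of 420 log2 fold changes of members under 7 alternatives, 409 kept their direction and their side of the threshold, 8 reversed and 3 passed it, all 3 without the filter on low counts (Pde1b at 8 h against the control and against 1 h, Pde7b at 8 h against 4 h). Reversed with library size alone were Pde1b (-0.069), Pde1c (-0.034) and Pde7a (-0.027) at 1 h, Pde1a (0.043) and Pde4b (0.0062) at 8 h against 4 h, and Pde4d (-0.030) at 4 h against 1 h. Also reversed were Pde1b at 1 h with at least 10 counts in every library (-0.0014) and Pde4d at 4 h against 1 h with limma-voom (-0.016). Leaving out a 4 h library changed the sign of 6 of 60 further values, which have no test: without replicate 1 Pde4b at 4 h (-0.03) and at 8 h against 4 h (0.19) and Pde4d at 4 h against 1 h (-0.37), and without replicate 2 Pde1a (0.04) and Pde2a (-0.04) at 8 h against 4 h and Pde4b at 4 h against 1 h (0.22). Library size alone moved the median of all genes at 4 h from 0.01 to -0.11, and at 8 h against 4 h from -0.02 to 0.12.

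Calls over all genes, in the order 1 h, 4 h, 8 h (each against the control), 8 h against 4 h, 4 h against 1 h and 8 h against 1 h, numbered 57, 237, 22, 120, 67 and 91 with library size alone, 56, 238, 33, 129, 109 and 69 with DESeq2, and 285, 1300, 279, 957, 725 and 438 without the filter. Median-of-ratios factors, limma-voom and the minimum of 10 counts each gave 0 calls for 4 h, whether set against the control or 1 h, and that minimum gave 1 call at 1 h. The cause was not tested. A fit without a 4 h library has no residual degrees of freedom, so calls were not recomputed. Members at least 1.5-fold from the control at 4 h numbered 2 without replicate 1 (24.5% of all genes), 4 without replicate 2 (37.8%), and 0 with a fold of 2 (6.47%), which gave 1 at 8 h (10.2%). Depth was low for Pde2a, with between 76 and 145 counts, and Pde1c, with between 143 and 258.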
